A study of Homo sapiens with 9 samples.

Results

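The regions described here are long internal exons: exons of at least 1000 nucleotides (nt) that were neither the first nor the last of their gene in transcript direction and that held at least 10 counts in each of 6 RNA-seq libraries. Of 206550 exons in the deposited tables, 1600 were internal and this long, and 1130 of those, in 1033 genes, met the count minimum. The libraries came from U251, an established human glioblastoma cell line. Of the 6 libraries, 3 were from cells with knockdown of MSI1 and 3 were control libraries of wild type cells. MSI1 encodes Musashi1, an RNA-binding protein of neural progenitors that is also made in gliomas. How MSI1 was knocked down and what the control cells received are not given in the labels, so an effect of the knockdown procedure cannot be told apart from one of MSI1. The exons were chosen by their length and position and by their counts in these 6 libraries, not by a difference between the groups. A further 3 samples of wild type cells gave MSI1 iCLIP, in which ultraviolet light crosslinks the protein to the RNA and the crosslinked base is read.

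Most internal exons of human genes are short, because the splicing machinery pairs the splice sites at both ends of an exon. An internal exon that is long in a gene model is usually of one of a few kinds. It may be a long coding exon, as in genes of very large proteins. It may be the end of a shorter transcript, where the RNA is cut and polyadenylated at a site that lies upstream of the last exon of the gene, often just after the hexamer AATAAA or its variant ATTAAA. It may also be the start of a transcript from an internal promoter. Where a transcript ends at such an exon, reads fall off after it, and a shift between the short and the long transcript moves reads between the exon and the exons downstream.

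In length, the 1130 exons ran from 1000 to 18173 nt with a median of 1595 nt. Their mean count over the 6 libraries had a median of 464, and their share of the summed exon counts of their gene had a median of 24.5%, with a range of 0.132% to 99.7%. There were 955 genes with 1 such exon, 67 with 2, 7 with 3, 2 with 4 and 2 with 6, so exons of 1 gene share its counts. At the length limit, UGT1A6 exon 2 (1000 nt) and ZDHHC8 exon 10 (1001 nt) lay just inside, and FAM178A exon 5 (998 nt) and DGCR8 exon 2 (997 nt) just outside. At the count limit, RFESD exon 2 and LOC339524 exon 5 had a lowest count of 10, and PWWP2B exon 2 and CSPG5 exon 2 had a lowest count of 9 and were left out. A minimum in every library removes exons that were nearly absent in either group.

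The exon counts of a library summed to between 41850423 and 60776151. MSI1 itself had 3.15, 5.11 and 2.26 CPM (counts scaled to a common library size) in the knockdown libraries, against 16.0, 17.7 and 7.59 CPM in the control libraries. The groups did not overlap, and the log2 change was −1.97 (SE 0.42) with an adjusted p of 0.0699 by the quasi-likelihood test of edgeR and of 0.00279 once replicate numbers entered as a block. The third control library lay far from the rest, with 80.6 on a first principal component where the other 5 lay between −40.9 and 10.4. Of all its exon counts, 38.0% lay in last exons and 1.33% in first exons, against 33.8% to 36.1% and 2.20% to 3.10% in the other libraries. Fewer cells that express a gene and less of its RNA per cell cannot be told apart in such bulk libraries. All 11 markers of glioma and neural progenitors on a list had enough counts to be tested, and 1 of them, SOX2, a transcription factor of neural stem cells, fell (log2 change −0.76, adjusted p = 0.0432 by edgeR), with 3 higher and 3 lower under the replicate block. Of 14 marker genes of other cell types, 5 had enough counts to be tested. By edgeR 0 were called without the replicate block and 1, SNAP25, was higher with it. For SNAP25 the log2 change was 1.03, with an adjusted p of 0.194 by edgeR and of 0.0291 with the block. CD3E (T cells) was at 0 in every library. CD68, also a leukocyte marker, stood at 3.70 to 5.10 CPM in knockdown and 3.95 to 6.54 CPM in control libraries. The neuronal marker SYT1 stood at 22.4 to 27.2 CPM in knockdown and 18.5 to 27.7 CPM in control libraries, and SNAP25 at 3.30 to 4.56 and 1.11 to 2.61 CPM.

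What these exons are in a current annotation was asked by matching gene symbol and exact exon length to the transcripts of GENCODE release 29 (GRCh38), with no coordinates carried over from hg18, the build of the tables. Of the 1130 exons, 724 matched an internal exon, 539 of them wholly coding, and 110 matched the last exon of at least 1 transcript. A further 22 matched a first or only exon and 4 matched both a last and an internal exon. For 267 no length or no gene matched, and 3 had a length that is not unique in its gene. Exons matched as last exons had a median relative position in their gene of 0.75, where 0 is the first exon and 1 the last, against 0.429 for those matched as internal. Their median GC content was 41.9%, against 49.2%.

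The ends of the exons differed between these classes in their sequence. Within the last 50 bases on the transcript strand, AATAAA or, where that was absent, ATTAAA was found in 82 of 109 exons matched as last exons whose sequence was read (75.2%), against 21 of 724 matched as internal exons (2.90%). In the first 50 bases of the same exons the shares were 2.75% and 2.62%, and on the opposite strand of the last 50 bases they were 13.8% and 1.93%. Where the hexamer was present in exons matched as last, its end lay a median of 18 bases before the exon's end. Conversely, 71.0% of the exons matched as internal ended in AG, the usual last bases before a 5′ splice site, against 4.76% of those matched as last. These are matches of letters in a window and not mapped cleavage sites.

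The first 4 sequences below are the ends of exons matched as last exons whose counts are described further on, with the hexamer in capitals. They are 30 bases long, 5′ to 3′, and stop at the exon's end, except that of C9orf72, which stops 11 bases before it. They were read from the GENCODE transcripts.
KIF1B exon 21: cattcAATAAAagttgaagtcatcttttaa
MXRA7 exon 5: gtccAATAAActttgagtagatgatctcaa
MSL3 exon 9: ctacaaAATAAAgtgctatctttttctgtt
C9orf72 exon 6: ATTAAAtgatattatactgactaattgggc
Another 2 exons matched as last exons held neither hexamer in their last 50 bases and are shown because their counts are described below.
SP100 exon 25: gtcataaaagtcactttattcctccatcaa
PPP2R1B exon 15: gagttgttctcttaaactgatatgagttct
The ends of 3 exons matched as internal coding exons are shown for contrast, and each stops where the next exon is joined.
MKI67 exon 13: aaattacaagactcggtccctgaaaataag
MAP1B exon 5: catccaagtcggccaagaccgccactgcag
PCF11 exon 8: acagtaggaaatattcaggcatctcaacag

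Counts per nucleotide were lower downstream than upstream of the exons that matched as transcript ends. Counts per nucleotide in the exons downstream, relative to those upstream, had a median log2 ratio of −1.01 in knockdown and −1.02 in control libraries over 88 exons matched as last exons with at least 30 summed counts on either side. Over 605 exons matched as internal the medians were 0.40 and 0.34. In the control libraries the log2 ratio was below −1 for 45 of the 88 exons (51.1%), against 32 of the 605 (5.29%) and 6.95% of internal exons under 1000 nt. For exons without a match this held for 59 of 204 (28.9%). The exon itself had fewer counts per nucleotide than the exons upstream of it where it matched as a last exon, with a median log2 ratio of −0.91 in knockdown and −1.13 in control libraries.

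**Figure D1:**
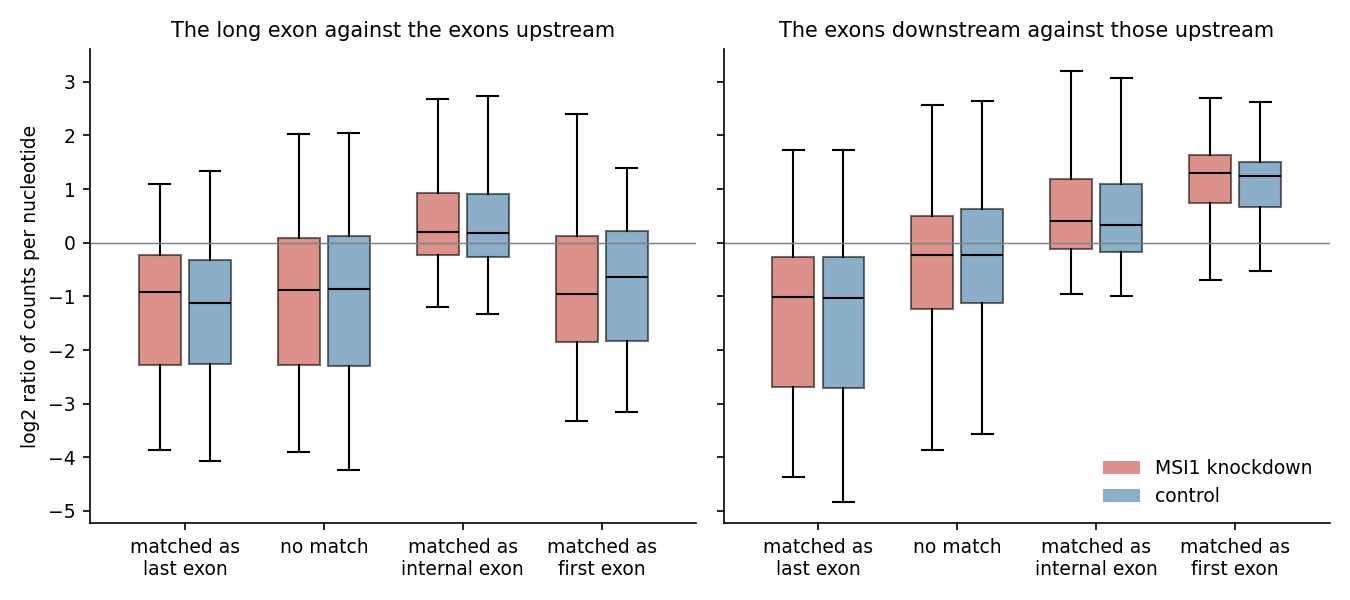
Log2 ratio of mean counts per nucleotide of the long exon to the exons upstream (left) and of the exons downstream to those upstream (right), for MSI1 knockdown (red) and control (blue) libraries, by the exon's match in GENCODE. Boxes give quartiles, lines medians and whiskers the 5th and 95th percentiles over exons; exons matched as last exons had a downstream median of −1.01 in knockdown and −1.02 in control libraries.

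As a set, the long internal exons took 2.47%, 2.54% and 2.64% of all exon counts in the knockdown libraries, against 2.67%, 2.81% and 2.80% in the control libraries. The groups did not overlap, with a difference of −0.207 percentage points and a two-sided exact permutation p of 0.1, the smallest that 3 against 3 libraries allow. Of the exon counts of their own genes, they took 28.6 ± 0.32% in knockdown and 28.8 ± 0.42% in control libraries (SD, n = 3 each), and here the groups overlapped (exact permutation p = 0.6). For the exons matched as last exons, this share was 28.1 ± 0.62% in knockdown and 27.2 ± 1.02% in control libraries, with groups that also overlapped (exact permutation p = 0.3). For the exons without a match it was 24.7%, 24.6% and 25.5% in knockdown and 23.9%, 24.3% and 24.4% in control libraries, which did not overlap (exact permutation p = 0.1).

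2 questions were put to each exon: whether its share of the gene differed between the groups, and whether the share of the exons downstream did. In the first test, diffSpliceDGE of edgeR over 123109 exons, 0 exons were called at an adjusted p of 0.05 (0.0% of those tested), and so 0 of the 1106 long internal exons tested. At an unadjusted p below 0.05 in diffSpliceDGE were 6 of the 1106 long internal exons (0.542%), where all exons, first and last ones included, gave 0.214%. Among internal exons of any length, 58 of 93908 had such a p. In the second, a quasi-likelihood test in edgeR of the odds of downstream counts against the rest of the gene over 93610 internal exons, 0 were called (0.0%), and 52 of the 1034 long internal exons tested (5.03%) had an unadjusted p below 0.05, where all internal exons gave 2.14%. By class, 18 of 83 exons matched as last exons, 14 of 707 matched as internal and 16 of 217 without a match were among these 52. DESeq2 on the same downstream counts called 9 long internal exons, 5 higher and 4 lower in knockdown, and 0.138% of all internal exons.

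Counts of exons whose groups did not overlap, every knockdown library lying above or below every control library, were read against the same count over all 93952 internal exons. The exon's share was higher in knockdown for 61 long internal exons (5.40%), where all internal exons gave 3.05%, and lower for 73 (6.46%), where all gave 4.77%. The downstream share was higher for 70 (6.19%), where all gave 5.02%, and lower for 33 (2.92%), where all gave 2.18%. A higher exon share together with a lower downstream share was found for 16 exons (1.42%), where all internal exons gave 0.392%. The opposite pair was found for 39 exons (3.45%), where all gave 0.812%. Long internal exons also hold a larger share of their gene than short ones, with medians of 24.5% in knockdown and 24.9% in control libraries, against 4.11% and 4.15% for internal exons under 1000 nt, and the part of this difference in the counts was not tested. The pair with the higher exon share held for 5 of 110 exons matched as last exons, 5 of 724 matched as internal and 6 of 267 without a match. The opposite pair held for 4 of the 110 (3.64%), 22 of the 724 (3.04%) and 8 of the 267 (3.00%).

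**Figure D2:**
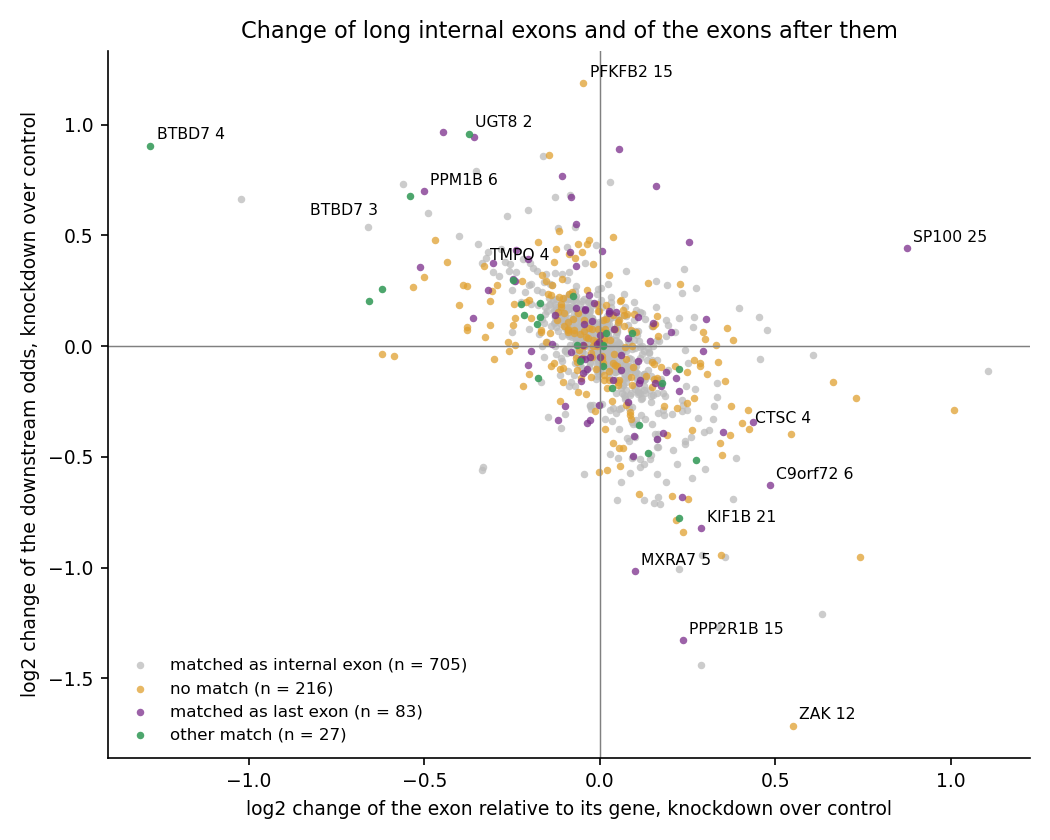
Log2 change of each long internal exon relative to its gene (x axis, diffSpliceDGE) and log2 change of the odds of downstream counts (y axis), knockdown over control, coloured by the exon's match in GENCODE; each point is 1 exon tested for both. ZAK exon 12 lies lowest, at −1.71 on the y axis, and BTBD7 exon 4 farthest left, at −1.28 on the x axis.

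The exons named below follow a rule on test rank, share, length, iCLIP sites and gene lists, and a few others are marked as picked with their values in view. The largest downstream log2 change in size among the 1034 exons tested was that of exon 12 of 21 of ZAK (chr2:173794124-173800119, plus strand, 5996 nt), a stress-activated kinase of the MAP kinase cascade that is known from a long and a short protein isoform with different ends. Exon 12 was among those without a match in GENCODE. It held 67.2%, 69.5% and 68.9% of the exon counts of ZAK in the knockdown libraries, against 47.4%, 47.0% and 46.2% in the control libraries. The 9 exons downstream held 10.9%, 8.10% and 8.55% in knockdown and 24.0%, 25.0% and 25.9% in control libraries. Both measures separated the groups without overlap, and the spread within a group was small beside the difference.

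In counts, exon 12 of ZAK had 4833, 4810 and 6256 in the knockdown libraries, against 2313, 1970 and 2352 in the control libraries. The odds of downstream counts had a log2 change of −1.71 (SE 0.16), with an adjusted p of 0.461 by edgeR, of 0.496 with the replicate block and of 1.01e-17 by DESeq2. Relative to its gene the exon had a log2 change of 0.55 (SE 0.26) with an adjusted p of 1.00 by diffSpliceDGE. A test of the exon's odds against the rest of its gene, added after the data were seen, gave a log2 change of 1.31 (SE 0.09) with an adjusted p of 0.0148 by edgeR. In that test ZAK exon 12 was the 1 exon called of 93907 (0.00106%). With the replicate block its adjusted p was 0.000565, where 4 exons were called (0.00426%), 3 of them long internal exons. Without control replicate 3 it was 1.65e-05, where 8 exons were called (0.00852%), 5 of them long internal exons. The gene as a whole had a log2 change of 0.72 with an adjusted p of 0.131 by edgeR, and of 0.00409 with the block.

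Exons whose share was higher in knockdown while the exons after them took less included several that matched as last exons. KIF1B encodes a kinesin motor whose short alpha and long beta forms differ in their tails. Its exon 21 of 48 (chr1:10285808-10291242, 5435 nt) held 46.5%, 44.7% and 47.4% of the gene's counts in knockdown, against 36.6%, 35.4% and 41.0% in control libraries. The 27 exons downstream held 20.2%, 19.8% and 16.4% in knockdown and 30.8%, 30.7% and 25.6% in control libraries. The groups did not overlap in either measure, with control replicate 3 nearest to the knockdown libraries. The downstream log2 change was −0.82 (SE 0.15), with an adjusted p of 1.00 by edgeR and 0.00939 by DESeq2. Downstream density stood at a log2 ratio of −2.81 to upstream density in knockdown and −2.09 in control libraries.

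MXRA7, a matrix-remodelling-associated gene, has a long exon 5 of 6 that matched as a last exon. It held 80.2%, 78.5% and 79.0% of the counts in knockdown, against 72.8%, 73.8% and 75.6% in control libraries. The last exon held 7.48%, 8.02% and 8.49% in knockdown and 14.7%, 14.8% and 15.4% in control libraries, again without overlap. Its log2 change was −1.02 (SE 0.11), with an adjusted p of 0.489 by edgeR and 2.49e-14 by DESeq2. The exon's counts themselves overlapped between the groups, at 7939 to 10384 in knockdown and 7995 to 12644 in control libraries, so the separation was one of shares.

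PPP2R1B encodes a scaffold subunit of protein phosphatase 2A. Its exon 15 of 17 (3732 nt) held 44.0%, 41.0% and 42.4% in knockdown, against 35.1%, 36.2% and 36.7% in control libraries. Little lay beyond it: 0.485%, 0.718% and 0.485% in knockdown and 1.26%, 1.68% and 1.29% in control libraries. The exon counts of the whole gene were 5569 to 6808 in knockdown and 2909 to 3814 in control libraries, so these downstream shares rest on few reads. The downstream log2 change was −1.33 (SE 0.25), with an adjusted p of 1.00 by edgeR and 0.0409 by DESeq2. The exon's counts did not overlap, with 2282 to 2888 in knockdown and 1053 to 1396 in control libraries, while the gene as a whole had a log2 change of 0.79 with an adjusted p of 0.103 by edgeR and 0.00713 with the block.

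C9orf72 is the gene whose repeat expansion causes familial amyotrophic lateral sclerosis and frontotemporal dementia, and a short transcript is known to end early in it. Exon 6 of 12 held 18.1%, 16.2% and 16.9% in knockdown, against 11.7%, 12.7% and 12.6% in control libraries. The exons downstream held 50.2%, 52.5% and 49.8% in knockdown and 64.2%, 61.1% and 58.9% in control libraries, and the groups overlapped in neither. The downstream log2 change was −0.63 (SE 0.14), with an adjusted p of 1.00 by edgeR and 0.0672 by DESeq2. The exon rests on few reads, 59 to 91 in knockdown and 111 to 141 in control libraries, and the gene had a log2 change of −1.26 with an adjusted p of 0.0600 by edgeR and 0.00325 with the block.

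CTSC, the lysosomal protease cathepsin C, and SP100, a protein of nuclear bodies with several C-terminal forms, were also among the exons with the lowest p for a higher share. CTSC exon 4 of 9 (5631 nt) held 21.0 ± 1.95% in knockdown and 15.7 ± 0.51% in control libraries, and the exons after it 56.1 ± 2.47% and 62.4 ± 2.21% (SD, n = 3 each). For CTSC the unadjusted p in diffSpliceDGE was 0.142. SP100 exon 25 of 30 held 12.2 ± 3.51% in knockdown and 6.78 ± 0.80% in control libraries, with a log2 change of 0.88 (SE 0.25) and an unadjusted p of 0.0127 in diffSpliceDGE. In SP100 the exons downstream were not lower: they held 17.1 ± 0.20% in knockdown and 13.2 ± 0.38% in control libraries, so both shares were the higher ones in knockdown. For neither exon did edgeR, limma or DESeq2 give a call.

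**Figure D3:**
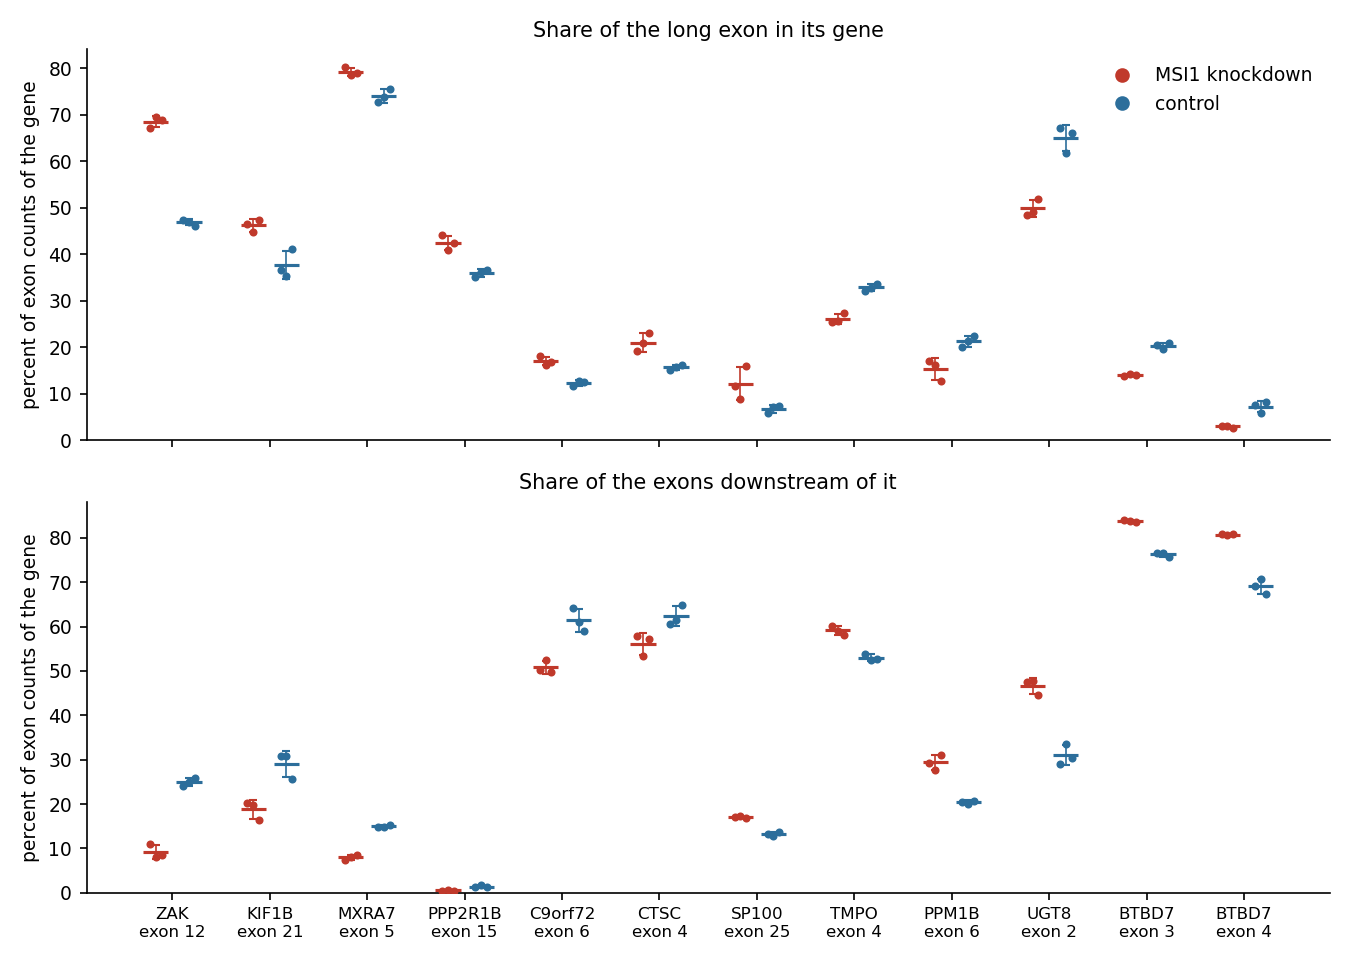
Percent of the exon counts of the gene in the long exon (upper) and in all exons downstream of it (lower), for 12 exons; points are libraries, lines means and bars SD, with MSI1 knockdown (red) left of control (blue), n = 3 each. ZAK exon 12 lies near 69% in knockdown and 47% in control libraries, while the exons after it lie near 9% and 25%.

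In other genes the exons after the long exon took more in knockdown. BTBD7, a BTB-domain protein of epithelial branching, has a pair of long internal exons of 1080 nt each, exons 3 and 4 of 12. Exon 4 (chr14:92823727-92824806, minus strand) held 3.15%, 3.11% and 2.75% in knockdown, against 7.55%, 5.94% and 8.29% in control libraries. Exon 3 held 13.8%, 14.3% and 14.0% in knockdown and 20.5%, 19.7% and 20.9% in control libraries. The exons after exon 4 held 80.8%, 80.7% and 80.8% in knockdown, against 69.1%, 70.7% and 67.4% in control libraries. All 3 shares separated the groups.

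The counts of BTBD7 exon 4 overlapped, at 128, 108 and 107 in knockdown and 138, 94 and 113 in control libraries, while those of the whole gene were 4061, 3475 and 3892 in knockdown against 1827, 1582 and 1363 in control libraries. The gene rose, with a log2 change of 1.21 (SE 0.13) and an adjusted p of 0.0110 by edgeR. Exon 4 had a log2 change of −1.28 (SE 0.21) relative to the gene. Its adjusted p was 1.00 by diffSpliceDGE, 0.000687 with the replicate block, where 10 of 123109 exons were called (0.00812%), and 0.0110 by limma, where 2 were called (0.00162%). The odds of the counts downstream had log2 changes of 0.91 (SE 0.10) after exon 4 and 0.68 (SE 0.09) after exon 3, with adjusted p of 0.596 and 1.00 by edgeR and of 2.59e-11 and 2.06e-08 by DESeq2. These 2 exons share a gene and are not independent.

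UGT8, the enzyme that makes galactosylceramide of myelin, had exon 2 of 6 matched as a first exon. It held 48.5%, 49.1% and 52.0% in knockdown, against 67.1%, 61.9% and 66.0% in control libraries. The exons after it held 47.6%, 47.7% and 44.6% in knockdown and 29.1%, 33.5% and 30.4% in control libraries. The groups were apart in both. The downstream log2 change was 0.96 (SE 0.14), with an adjusted p of 1.00 by edgeR and 5.97e-06 by DESeq2, and in the test of the exon's odds the adjusted p was 0.660 without and 0.0451 with the replicate block (edgeR).

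PPM1B, a protein phosphatase of the PP2C family, had exon 6 of 7 matched as a last exon. It held 17.1%, 16.3% and 12.7% in knockdown, against 20.0%, 21.3% and 22.5% in control libraries. The last exon held 29.3%, 27.8% and 31.1% in knockdown and 20.5%, 20.0% and 20.7% in control libraries, and the groups of PPM1B overlapped in neither measure. Its log2 change was 0.70 (SE 0.12), with an adjusted p of 1.00 by edgeR and 0.000219 by DESeq2. PFKFB2, a bifunctional enzyme of fructose 2,6-bisphosphate, had 8.56 ± 1.04% of its counts in its last exon in knockdown and 3.91 ± 1.14% in control libraries, while exon 15 before it held 61.5 ± 3.10% and 63.4 ± 3.05% (SD, n = 3 each). The downstream log2 change for PFKFB2 was 1.19 (SE 0.27), with an adjusted p of 1.00 by edgeR and 0.207 by DESeq2. It rests on few reads, as the whole gene had 514 to 719 exon counts in knockdown and 866 to 1070 in control libraries.

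TMPO encodes the lamina-associated polypeptides LAP2, of which the alpha form is known to end in its own long exon and the membrane-bound beta form to use later exons. Exon 4 of 10 (chr12:97450732-97452452) held 25.5%, 25.6% and 27.3% in knockdown, against 32.2%, 32.9% and 33.7% in control libraries. The exons downstream held 60.2%, 59.0% and 58.2% in knockdown and 53.9%, 52.4% and 52.6% in control libraries. Neither measure overlapped between the groups, at 2828 to 4436 counts per library in knockdown and 2689 to 3845 in control. The log2 changes were −0.33 (SE 0.29) for the exon and 0.36 (SE 0.09) downstream, and neither was called by edgeR, limma or DESeq2.

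**Figure D4:**
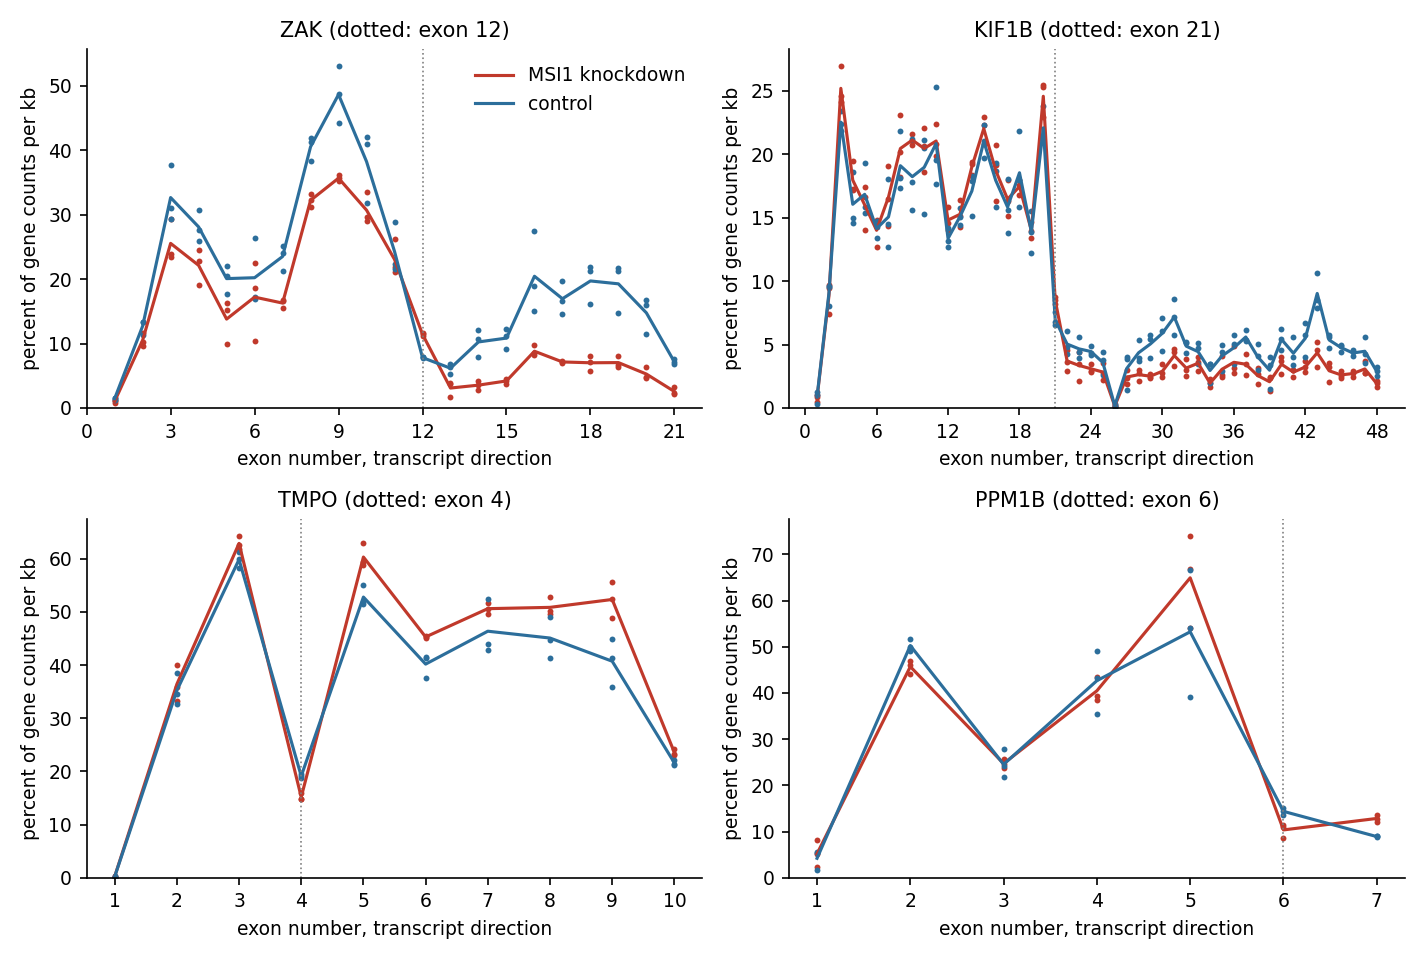
Percent of the gene's exon counts per kb of exon, exon by exon in transcript direction, in ZAK, KIF1B, TMPO and PPM1B; lines are means and points the 3 libraries each of MSI1 knockdown (red) and control (blue), and the dotted line marks the long internal exon. In ZAK and KIF1B the exons after it lie lower in knockdown, in TMPO they lie higher, and in PPM1B the last exon does.

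Other exons named for their rank in the share test had an unadjusted p from 0.0618 (DST exon 44) to 0.215 (C5orf44 exon 2) by diffSpliceDGE. Their differences were smaller or more variable, and no test with all 6 libraries called them. Higher in knockdown were PCLO exon 20, of the synaptic scaffold piccolo, at 20.1 ± 3.06% against 12.8 ± 2.96% in control libraries, and FLJ42709 exon 7, at 20.5 ± 4.12% against 14.4 ± 1.28%. TNS1 exon 17, of the focal adhesion protein tensin, held 13.2 ± 2.31% in knockdown and 9.28 ± 3.30% in control libraries, where 1 control library lay within the knockdown range. C5orf44 exon 2 held 16.0 ± 1.69% in knockdown and 12.3 ± 1.24% in control libraries (SD, n = 3 each throughout).

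Lower in knockdown were exons of 5 further genes. DST exon 44, of the cytoskeletal linker dystonin, held 5.95 ± 0.80% in knockdown and 8.50 ± 1.35% in control libraries. BRWD1 exon 5, of a bromodomain protein, held 7.37 ± 0.57% in knockdown and 10.1 ± 1.22% in control libraries. UBE2A exon 4, of a ubiquitin-conjugating enzyme, held 9.61 ± 0.38% and 14.7 ± 1.91%, and the gene rose with a log2 change of 0.94 and an adjusted p of 0.0420 by edgeR. MSL3 exon 9, of a chromodomain protein, held 13.5 ± 1.41% and 19.8 ± 4.46%, with control replicate 3 at 14.9%, within the knockdown range. WWP2 exon 10, of a ubiquitin ligase, held 5.32 ± 0.97% and 7.74 ± 2.52%, with groups that overlapped. Without control replicate 3, the test of the exon's odds called MSL3 exon 9 (adjusted p = 0.0335 by edgeR).

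The next 3 exons, called in 1 or 2 alternative settings, fell outside the rule for naming and were chosen after seeing their values. ANTXR1 exon 13, of an anthrax toxin receptor, held 4.39 ± 0.90% in knockdown and 2.16 ± 0.07% in control libraries, and its adjusted p with the replicate block was 0.0214 in diffSpliceDGE. ANTXR1 as a gene fell, with a log2 change of −0.78 (SE 0.12) and an adjusted p of 0.0330 by edgeR. CAPRIN1 exon 18, of a stress granule protein, held 4.93 ± 0.44% in knockdown and 2.98 ± 0.21% in control libraries, with an adjusted p of 0.0420 in the test of its odds with the block and of 0.0444 without control replicate 3 (edgeR). PCDH15 exon 36, of a protocadherin, was called downstream by DESeq2 alone (adjusted p = 0.00406), on 17 to 40 counts in knockdown and 20 to 29 in control libraries.

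At the other extreme were long exons that made up nearly all counts of their gene. AHNAK exon 5 (18173 nt), the longest of all, encodes most of a giant scaffold protein and held 98.7% to 99.3% of the counts of AHNAK in knockdown and 98.8% to 99.7% in control libraries. SYNC exon 2 and FILIP1L exon 6 held between 99.3% and 100% in each library of both groups. ATXN1L exon 3 and LOC645323 exon 5 held means of 99.2% and 97.4% in knockdown and 99.1% and 97.5% in control libraries. In such genes little lies outside the exon, so the share test has little to compare with.

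The next longest exons were ZXDC exon 6 (11105 nt), CMYA5 exon 2 (10489 nt), STARD9 exon 23 (10227 nt) and WHSC1 exon 12 (9165 nt). ZXDC exon 6 held 79.3 ± 2.57% of its gene in knockdown and 74.3 ± 4.61% in control libraries. STARD9 exon 23, which codes for most of a large kinesin, held 61.7 ± 1.41% and 61.5 ± 3.35%. CMYA5 exon 2, of a muscle protein, rested on 30 to 97 counts in knockdown and 49 to 86 in control libraries. WHSC1 exon 12, of a histone methyltransferase with a known short form, held 14.6 ± 1.54% and 12.0 ± 2.18%, with groups that overlapped.

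A list of genes with long coding exons held 73 of the 1130 exons in 50 genes, and 0 of the 73 were called or had an unadjusted p below 0.05 in diffSpliceDGE. Of all exons tested, 0.0% were called and 0.214% had an unadjusted p below 0.05, so 0 of 73 lies near that share. The median log2 change of the 73 was −0.02, and that of all exons tested 0.00. MKI67 exon 13, the repeat exon of the proliferation antigen Ki-67, held 62.7 ± 1.02% in knockdown and 62.4 ± 1.60% in control libraries. SRRM2 exon 11 and SON exon 3, both of splicing cofactors of nuclear speckles, held 78.9 ± 1.77% and 63.6 ± 1.78% in knockdown, against 80.8 ± 2.62% and 65.6 ± 1.44% in control libraries. CENPF exon 12, of a kinetochore protein, held 27.7 ± 1.09% and 28.3 ± 1.13%. MAP1B exon 5, of a microtubule-associated protein, held 53.0 ± 2.02% and 52.2 ± 5.08%, while the gene fell by 0.70 on the log2 scale (adjusted p = 0.0391 by edgeR).

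A list of genes known for alternative last exons held 8 of the exons in 7 genes, and 0 were called, where 0.0% of all exons tested were. Besides TMPO and WHSC1 these were led by LAMP2 exon 9 of 10 (2800 nt), an end of the lysosomal membrane protein LAMP2, with 42.2 ± 1.34% in knockdown and 40.6 ± 2.65% in control libraries. RBBP6 exon 17 held 28.1 ± 2.22% and 26.0 ± 0.22%, and PCF11 exon 8 held 22.4 ± 1.34% and 23.7 ± 2.86%. RBBP6 and PCF11 encode parts of the 3′ end processing machinery itself. Of 37 tested genes for such factors, 0 were called by edgeR, where 1.67% of all genes were. Once the replicate number was a block, 1 was higher and 3 lower, where 17.3% of all genes were called. Their median log2 change was −0.13, where that of all genes was −0.04. The lowest p among them belonged to CSTF2T, SSU72, ELAVL1, NUDT21 and PCF11, with log2 changes of −0.36, −0.40, 0.31, −0.50 and −0.37. For NUDT21, the RNA-binding subunit of cleavage factor I, the level was 180, 152 and 208 CPM in knockdown and 215, 206 and 341 CPM in control libraries, which overlapped (adjusted p = 0.364 by edgeR, and 0.0292 with the block).

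How often the genes that hold long internal exons were called was set beside all genes, with no test of the difference. By edgeR, 16 of the 1033 genes were called (1.55%), where all 13856 genes tested gave 1.67%. Of the 16, 7 were higher and 9 lower in knockdown, where 0.772% and 0.902% of all genes were. With the replicate block 24.3% were called, where all genes gave 17.3%: 74 were higher and 177 lower, where 7.04% and 10.3% of all genes were. DESeq2 called 65 (6.29%), where all genes gave 5.76%. Leaving out knockdown replicate 1, 2 or 3 left 0 calls among these genes, where all genes gave 0.0%, 0.0285% and 0.0286%. Leaving out control replicate 1 or 2 left 1 call, where all genes gave 0.0714% and 0.0643%, and leaving out control replicate 3 gave 82, where all genes gave 7.31%. The count therefore rests on which libraries enter.

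MSI1 iCLIP sites, from the 3 lists of wild type cells, fell in long internal exons at 3.34, 0.282 and 0.479 sites per kb in lists 1, 2 and 3. Exons matched as last exons held 5.69, 0.686 and 1.20 sites per kb, those without a match 4.20, 0.415 and 0.768, and those matched as internal 2.54, 0.157 and 0.235. Internal exons under 1000 nt held 2.89, 0.194 and 0.333. These 4 sets had the same order in each list. The 22 exons matched as a first or only exon held 4.80, 0.293 and 0.454, above the exons without a match in list 1 and below them in lists 2 and 3. The lists differ greatly in size (1746795, 145718 and 208722 sites), and the sites were not scaled for the level of the RNA. These are descriptions of pooled sites with no replicate test.

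**Figure D5:**
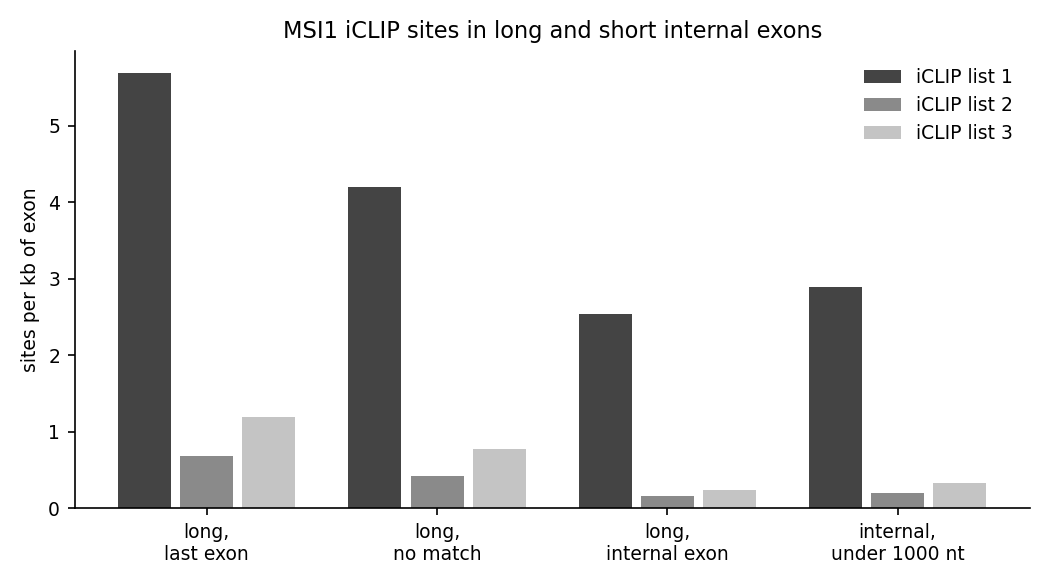
MSI1 iCLIP sites per kb of exon in lists 1, 2 and 3 of wild type U251 cells, for long internal exons by their match in GENCODE and for internal exons under 1000 nt. Exons matched as last exons hold 5.69, 0.686 and 1.20 sites per kb and those matched as internal 2.54, 0.157 and 0.235.

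Of 4446 sites present at the same nucleotide in all 3 lists, 10 lay in long internal exons. LAMP2 exon 9 held 5 of them, SLC39A14 exon 11 held 2, and ASPH exon 19, SNHG7 exon 2 and FGFR1 exon 7 held 1 each. The exons' own shares overlapped between the groups for SLC39A14, ASPH, SNHG7 and FGFR1, as they did for LAMP2. The downstream shares also overlapped, except in ASPH. There they were 26.4%, 25.9% and 26.8% in knockdown and 27.3%, 29.3% and 28.8% in control libraries (unadjusted p = 0.129 by edgeR). SLC39A14, a zinc and manganese transporter, fell as a gene by 1.03 on the log2 scale (adjusted p = 0.0196 by edgeR), while its exon 11 held 71.7 ± 4.62% of the counts in knockdown and 75.2 ± 7.41% in control libraries. ZAK exon 12 held 13, 3 and 4 sites in the 3 lists, KIF1B exon 21 held 37, 4 and 8 and MXRA7 exon 5 held 21, 3 and 11, and 0 of these sites lay at the same nucleotide in all 3 lists. C9orf72 exon 6, SP100 exon 25, MSL3 exon 9 and BTBD7 exon 4 held 0 sites in each list.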

How the data were processed

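Per the labels, RNA-seq and iCLIP were done on U251 cells. The labels' protocol text describes iCLIP alone and says that replicates were combined for sequencing, while the titles number 3 replicates a group, so the spread behind each p-value is that between deposited samples and may be technical. The authors deposited raw read counts, one table by gene and one by exon for each library (hg18, per the submitters' processing notes) and, for iCLIP, lists of sites with a p-value each, which are the authors' own and were not used to filter. No label or file header names the aligner, counting tool, strand setting or peak caller. A library held between 41850423 and 60776151 exon counts, and precision is limited by having 3 libraries a group.

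Exons were ordered by coordinate and strand. Shares are counts over the summed exon counts of the gene, and a read across a junction can count in more than 1 exon. Exons were tested with diffSpliceDGE, downstream counts with a quasi-likelihood test whose offset is the log of the gene's other counts, and genes with the quasi-likelihood test after TMM and filterByExpr, all in edgeR 4.0.16 (R 4.3.3), with Benjamini-Hochberg adjustment over every feature tested and a threshold of 0.05. Alternatives used limma 3.58.1, DESeq2 1.42.0, other scaling and filters, the replicate block and leaving out each library. The test of an exon's odds was added after the data were seen. The scripts were tested on simulated data.

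Of the 1130 exons, 1106 entered the share test and 1034 the downstream test. In 14, another gene's exon overlaps, on the opposite strand in 11. Same-numbered libraries deviated together, with correlations of 0.32, 0.73 and 0.75 for replicates 1, 2 and 3, all above 0.1. Knockdown replicate 2 also correlated with control replicate 1, at 0.49, and the other pairs of unlike number had negative correlations. The main tests compared the groups alone, without pairs. Replicate numbers, which are in the titles, entered as a block in an alternative setting. Blocked values are given for some of the exons and genes whose call they change, and others are only counted. Members, lists and the rule for naming (lowest p per direction in either test, highest share, length, shared iCLIP sites and the lists) were chosen with earlier results of these data known. Some items that this rule names are not reported here.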

Additional observations from a re-analysis of the deposited data

How the results depend on the processing

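The downstream test called 0 long internal exons under 11 alternatives (the replicate block, each library left out, other filters and odds, and longer or non-overlapping exons) and 9 by DESeq2. The share test called 0 under 11 alternatives, 2 with the replicate block and 1 by limma. In both tests, the settings with longer or non-overlapping exons reread the main fit. So did the share test's setting with the count minimum put on the mean over libraries. As the main fits called 0 exons, the 0 of these settings was fixed and is no separate check. The test of the exon's odds, chosen after seeing the data, called 1, with the replicate block 3 and without control replicate 3 it called 5 (ZAK, UGT8, BTBD7 exon 4, MSL3 and CAPRIN1). Of the genes that hold these exons, 1.55% were called, against 24.3% with the replicate block, 6.29% by DESeq2 and 0 to 7.94% when 1 library was left out. The pooled share differed by −0.207 percentage points, and by −0.254 to −0.169 with 1 library left out. The median share within the gene, another quantity, differed by −0.125 (exact permutation p = 1.0), so its groups were not apart. Under alternatives, 390 log2 changes of named exons were read, in the share and downstream tests and in the test of the exon's odds. Of these, 0 changed sign and 17 became called. The 8 downstream calls were all by DESeq2. Of the 9 calls for the exon's share, only those of BTBD7 exon 4 with the replicate block and by limma came from the share test. The rest came from the test of the exon's odds. The share levels of the other named exons, which had no call, moved by less than their spread in 132 values with 1 library left out, and the difference between the groups changed sign in 22. The causes were not tested. The count minimum in each library hides exons absent from 1 group. With 3 libraries a group and adjustment over all exons, small shifts were not detectable, and large ones could also stay uncalled. ZAK exon 12, with a downstream log2 change of −1.71 (SE 0.16), had an adjusted p of 0.461 by edgeR. The 0 calls of the main tests therefore do not show that large shifts were absent. Exact permutation tests cannot go below 0.1.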
